A study of Mus musculus with 6 samples.

Results

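Fatty acid beta-oxidation is represented here by 35 genes that encode enzymes and carriers of the pathway, chosen by symbol and found as 35 single rows among the 35122 Ensembl genes of the count table. Adipocytes that rose to the top after collagenase digestion of epididymal fat gave the RNA, from male C57BL/6 mice fed chow, and every mouse was homozygous for a floxed allele of Spi1, the gene of the transcription factor PU.1. The control group was 3 PU.1 fl/fl mice without Cre, and the aPU.1KO group was 3 AdipoqCre_PU.1 fl/fl mice, in which Cre is driven by the adiponectin promoter and so acts in adipocytes of all fat depots and not in this depot alone. Loss of PU.1 and presence of the Cre transgene cannot be told apart, since no Cre mouse without floxed Spi1 was analysed here. The labelled age is 10 to 11 months, whereas the study's text speaks of mice over 1 year old. Each mouse gave 1 library, and the mice of a group are numbered 1 to 3.

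Beta-oxidation shortens fatty acids by removing an acetyl-CoA unit in each round of dehydrogenation, hydration, oxidation and thiolysis. In mitochondria, long chains enter through the carnitine shuttle, of which CPT1 on the outer membrane is the regulated step, inhibited by malonyl-CoA. Peroxisomes run a parallel set of enzymes on very long, branched and dicarboxylic chains, in which an oxidase passes electrons to oxygen in place of the electron transfer flavoprotein. White adipocytes store fatty acids and oxidise comparatively little, yet they express the whole pathway, and many of its genes are textbook targets of the PPAR nuclear receptors. By compartment, 22 members were taken as mitochondrial and 9 as peroxisomal, and the other 4 (Crat, Acad11, Eci2 and Acot1) as found in both or in the cytosol.

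The libraries held between 20550252 and 24310144 estimated counts, other than control mouse 1 with 69283842. Values are CPM, counts per 1000000 counts of the library size as scaled by the TMM method. Spi1 was counted at 24.3, 6.35 and 26.7 CPM in the control mice and at 3.20, 1.22 and 4.17 CPM in the aPU.1KO mice, without overlap and with control mouse 2 lowest of its group. Spi1 is also a macrophage gene, and in these bulk samples fewer cells of a type and less RNA per cell cannot be told apart. All 10 white adipocyte markers were expressed in every mouse, while Ucp1, the uncoupling protein of brown adipocytes, did not exceed 1.06 CPM, and 6 of 7 epididymis markers were too low to be tested. The group difference in markers of other cells is given with the results on cell composition.

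Promoters are shown for 5 of the 9 members with an adjusted p under 0.05 by DESeq2, those with a RefSeq promoter window (GRCm38.p6) whose 100 bases before the start hold no annotated exon. In each run of 100 bases, read 5′ to 3′ on the strand of the gene, capitals mark a match to 1 of 5 motifs searched on both strands.
Echs1 (chr7:140116477-140116576, minus strand): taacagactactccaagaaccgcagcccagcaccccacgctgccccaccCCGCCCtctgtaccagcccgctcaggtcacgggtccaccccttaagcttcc
Etfa (chr9:55512244-55512343, minus strand): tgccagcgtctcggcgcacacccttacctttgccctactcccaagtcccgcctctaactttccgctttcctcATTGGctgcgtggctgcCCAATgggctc
Eci1 (chr17:24426541-24426640, plus strand): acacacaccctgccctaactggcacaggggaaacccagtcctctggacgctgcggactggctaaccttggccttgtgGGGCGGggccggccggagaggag
Ehhadh (chr16:21787835-21787934, minus strand): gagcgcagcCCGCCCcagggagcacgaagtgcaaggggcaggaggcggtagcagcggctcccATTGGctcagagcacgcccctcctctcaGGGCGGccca
Acot4 (chr12:84038279-84038378, plus strand): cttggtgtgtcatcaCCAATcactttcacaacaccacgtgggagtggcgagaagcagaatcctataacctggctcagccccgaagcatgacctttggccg

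Another stretch is shown because 2 members share it. Hadha and Hadhb, which encode the alpha and beta subunits of the mitochondrial trifunctional protein, lie head to head on chromosome 5 in the GENCODE M21 annotation (GRCm38) with 85 bases between them, printed here on the plus strand, from the Hadha side to the Hadhb side.
Hadha to Hadhb (chr5:30155163-30155247): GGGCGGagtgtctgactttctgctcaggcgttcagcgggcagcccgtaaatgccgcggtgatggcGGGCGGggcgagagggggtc
The 5 motifs were the GC box, the CCAAT box, the NRF1 motif, a PU.1 site and DR1, the element bound by PPAR with RXR, and no motif holds another. RefSeq windows of 300 bases (250 before the start and 50 after it) were at hand for 29 of the 35 members. The GC box, searched as GGGCGG, was in 22 of the 29 windows, against 35.7% of all 32851 windows. The CCAAT box, searched by those letters, was in 15, against 37.4%. The NRF1 motif was in 3 windows, those of Etfdh, Acad10 and Etfb, against 4.60% of all. DR1 and the PU.1 site, the latter searched as GAGGAAGT, were in none of the 29, against 0.0396% and 3.20% of all windows, which says only that these letters are not in these windows.

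Levels of different genes were compared per length, as CPM per kilobase of the principal transcript. In control adipocytes the 2 subunits of the electron transfer flavoprotein led, with 281 ± 30.8 for Etfb and 258 ± 17.7 for Etfa (SD, n = 3), followed by the medium-chain dehydrogenase Acadm with 243 ± 14.6. The control mice of these 3 genes overlapped, and those of Acadm lay above those of the next gene. That gene was Hsd17b4, the peroxisomal multifunctional enzyme, with 189.7 ± 6.95 CPM per kilobase, so the most abundant peroxisomal member ranked 4 of 35, although its mice overlapped those of Hadhb, the next in order, at 186 ± 11.7. The remaining peroxisomal members were lower, from 81.7 ± 7.56 for the thiolase Acaa1a to 1.96 ± 0.496 for the thioesterase Acot4.

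**Figure D1:**
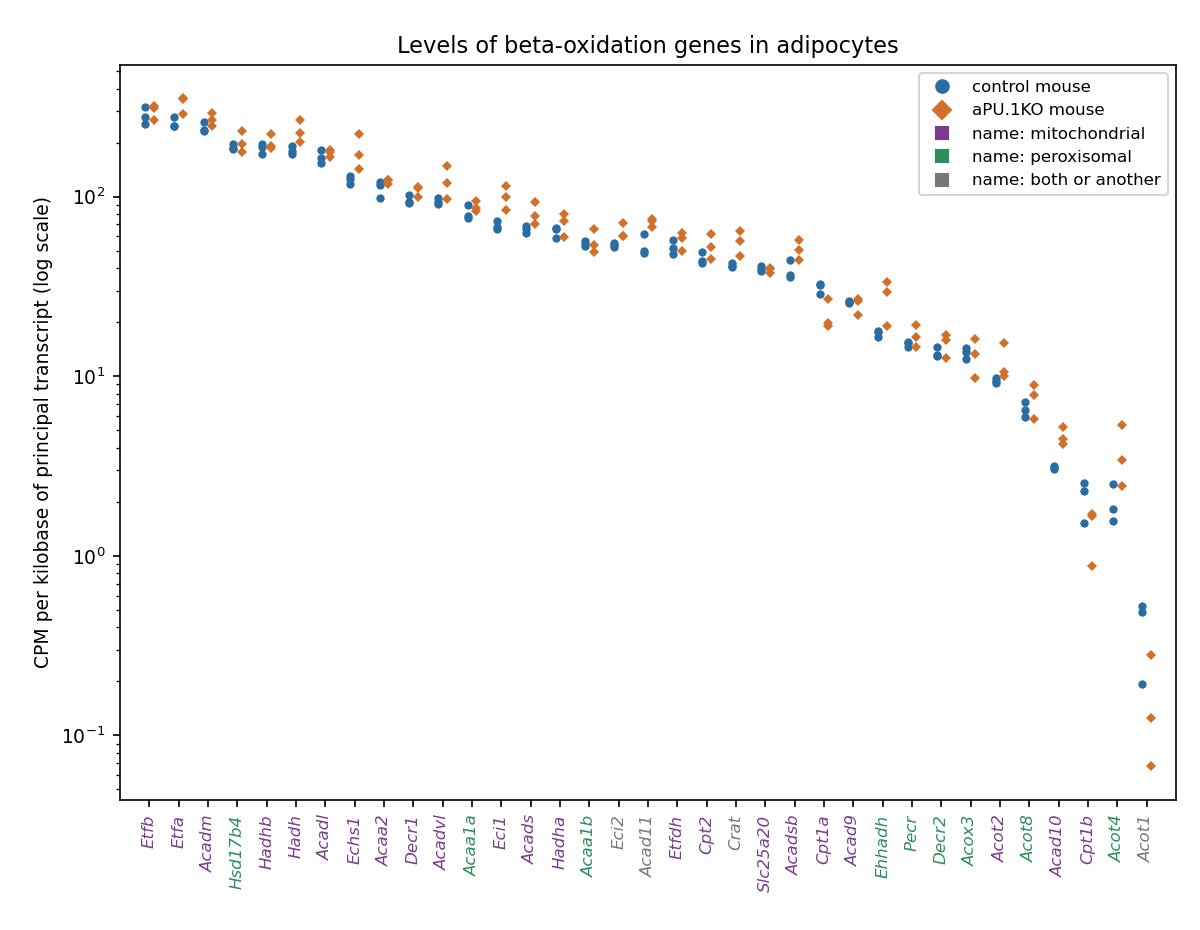
Level of each of the 35 beta-oxidation genes in CPM per kilobase of principal transcript, on a log axis, with 1 point per mouse (circles, 3 control mice; diamonds, 3 aPU.1KO mice) and genes ordered by the control mean. Gene names are coloured by compartment. Control means run from 281.2 CPM per kilobase for Etfb to 0.403 for Acot1, and single mice from 352 for Etfa in aPU.1KO mouse 2 to 0.067 for Acot1 in aPU.1KO mouse 1.

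The entry step ranked lower. Cpt1a, the liver-type CPT1 and the main form here, was at 31.3 ± 2.17 CPM per kilobase, and Cpt1b, the muscle-type form, at 2.12 ± 0.525. Per length, Cpt1a exceeded Cpt1b in every mouse. Acad10, Cpt1b, Acot4 and Acot1 were the 4 lowest members in control mice, and Acot1 rested on few counts, with 87, 10 and 28 counts in the control libraries and 3, 14 and 6 in the aPU.1KO libraries.

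The comparison of aPU.1KO with control mice asks how these genes differ in older mice with Spi1 targeted in adipocytes. By Western blot the study found PU.1 reduced but not absent in the isolated aPU.1KO adipocytes. Most members were somewhat higher in aPU.1KO adipocytes. The log2 fold change (aPU.1KO over control, given with its standard error, SE) was above 0 for 29 of 35 members, against 52.0% of the 13925 genes tested, with a median of 0.16 against 0.01 over all genes tested. No member passed the test of the design: by edgeR's quasi-likelihood test, 0 of 35 had an adjusted p under 0.05, against 0.237% of all genes tested. Spi1, the targeted gene, did not pass it either. Its log2 fold change was -2.75 (SE 0.64, adjusted p = 0.0788 by edgeR and 7.65e-05 by DESeq2). At an unadjusted p under 0.05, edgeR counted 13 members higher, against 11.9% of all genes tested, and 1 lower (Cpt1a), against 13.7%. In 12 members every aPU.1KO mouse lay above every control mouse, against 16.7% of all genes tested, and in 1 member every aPU.1KO mouse lay below, against 15.5%.

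DESeq2, the tool of the study's own analysis, gave an adjusted p under 0.05 to 8 members in the higher direction, against 3.51% of the genes it tested, and to 1 in the lower, against 7.48%. The 8 were Crat, Acad10, Acad11, Echs1, Eci1, Etfa, Ehhadh and Acot4, and the single lower member was Cpt1a. These counts changed when single mice were left out. Such fits also hold fewer replicates and, without control mouse 1, less depth, and these effects cannot be told apart. Among DESeq2 fits that left out a mouse, that lacking control mouse 1 called 0 members, those lacking control mouse 3, aPU.1KO mouse 1 or aPU.1KO mouse 2 called 2 each, that lacking control mouse 2 called 6 and that lacking aPU.1KO mouse 3 called 12. Of the 9 called members, Acad10 kept its DESeq2 call in 5 of these 6 fits, Eci1 in 4, Cpt1a, Acad11 and Acot4 in 2 each, and Crat, Echs1, Etfa and Ehhadh in 1 each. Calls over all genes moved as well, with 1833 in the DESeq2 fit of all mice, 370 lacking control mouse 1, 2195 lacking control mouse 2, 681 lacking control mouse 3, and 1109, 1445 and 2186 lacking aPU.1KO mouse 1, 2 or 3. With control mouse 1 left out, the 13 members counted as higher by edgeR were 5, the fits lacking control mouse 3 or aPU.1KO mouse 1 gave 8, and 16 were counted in the fit that lacked aPU.1KO mouse 3. Each library came from its own mouse, so the spread between replicates is that between mice.

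**Figure D2:**
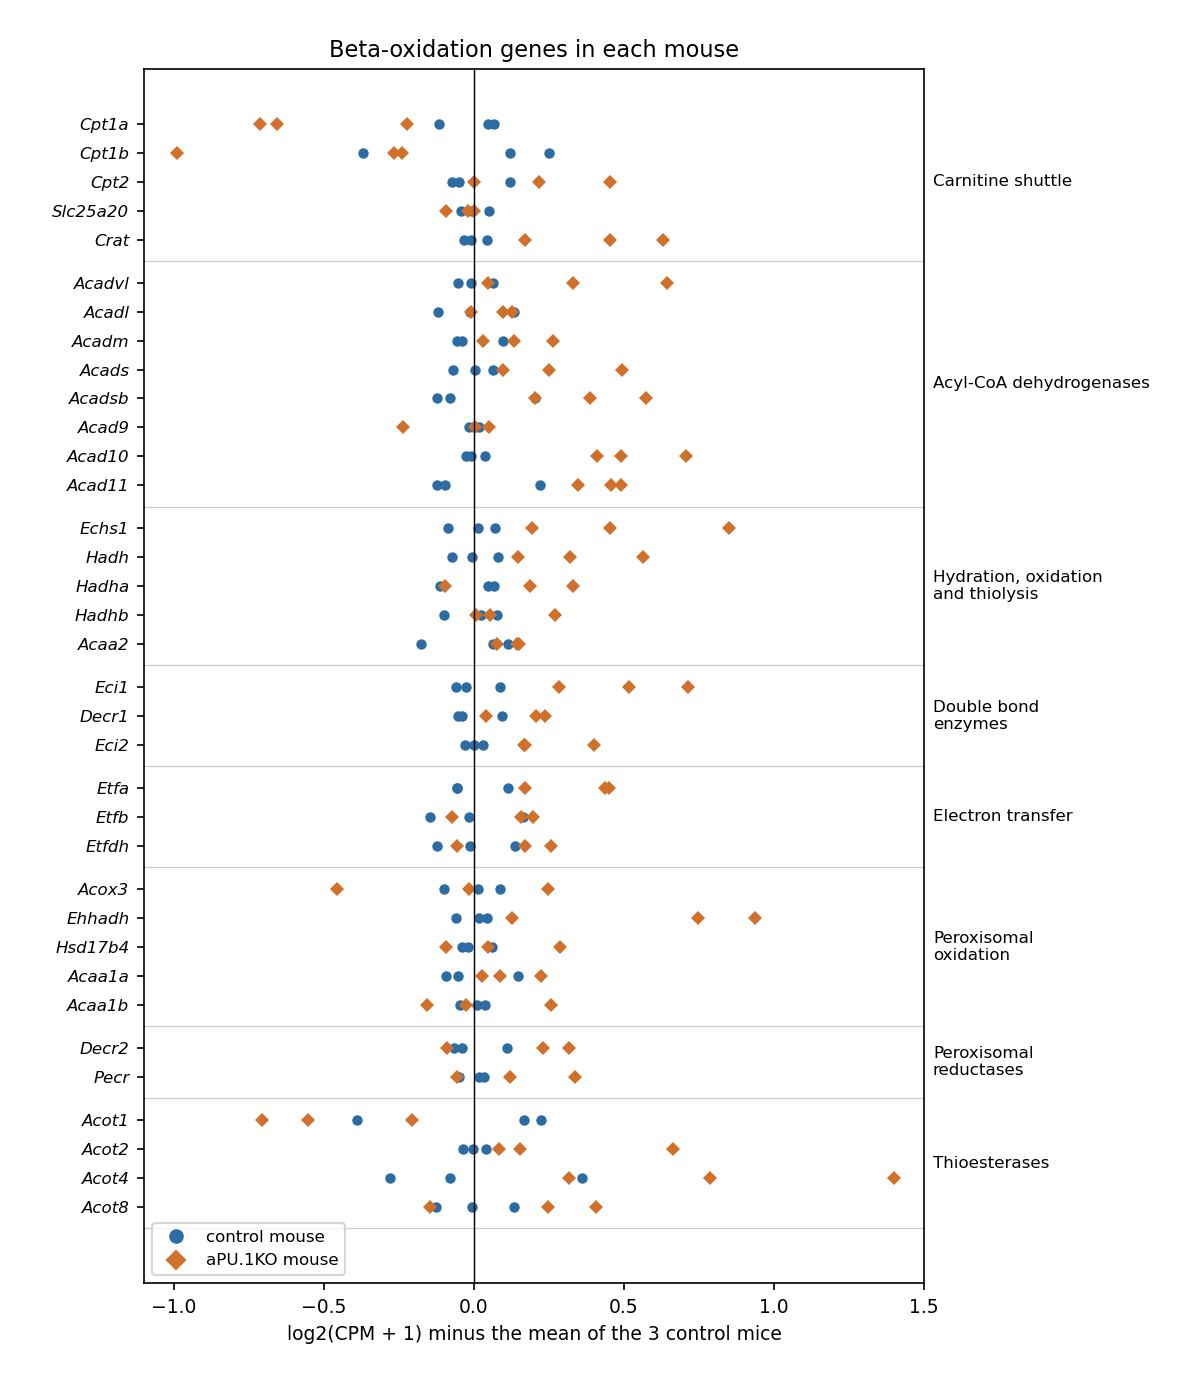
Level of each of the 35 genes in each mouse as log2(CPM + 1) minus the mean of the 3 control mice, grouped by role in the pathway (circles, control mice; diamonds, aPU.1KO mice). Cpt1a is the member with all 3 aPU.1KO mice to the left of all control mice, while Acad10, Eci1 and Crat are among the 12 with all 3 to the right.

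The carnitine shuttle held the single lower member and 1 of the higher ones. Cpt1a (ENSMUSG00000024900, chr19:3322334-3385733) was counted at 139.6, 124 and 142 CPM in the control mice and at 81.9, 85.3 and 116 CPM in the aPU.1KO mice. All 3 aPU.1KO mice were below all controls, with mouse 3 nearest to them, and the log2 fold change was -0.52 (SE 0.14, adjusted p = 0.0990 by edgeR). DESeq2 gave Cpt1a an adjusted p of 0.0218 (over the alternatives 1.48e-07 to 0.9997). Here and below, these alternatives include the DESeq2 fits that left out a mouse, which were chosen after seeing the data. A lower end below the DESeq2 value of all mice comes from such a fit. Cpt1b was at 6.62, 4.42 and 7.34 CPM in control and 4.93, 2.53 and 4.83 CPM in aPU.1KO mice, with groups that overlapped and a log2 fold change of -0.59 (SE 0.31). Skeletal muscle markers, with 2 of 8 tested, summed to 37.8, 51.2 and 39.6 CPM in control and 130.1, 43.6 and 36.1 CPM in aPU.1KO mice, high in aPU.1KO mouse 1 only, and their part in Cpt1b was not tested. The Cpt1b transcript is contained over 94.8% of its length in the overlapping gene Gm44502, so the 2 share reads.

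Cpt2, which returns acyl groups from carnitine to CoA on the inner membrane, was at 103, 102 and 116 CPM in control mice and at 124, 147 and 107 CPM in aPU.1KO mice. The groups of Cpt2 overlapped through aPU.1KO mouse 3, and its log2 fold change was 0.23 (SE 0.13). Slc25a20, the carnitine-acylcarnitine carrier between them, had a log2 fold change of -0.04 (SE 0.07), and its 6 values lay between 66.7 and 73.7 CPM. Within each mouse the ratio of Cpt1a to Cpt2 in CPM, chosen after the values were seen, was 1.35, 1.22 and 1.22 in the control mice and 0.659, 0.581 and 1.082 in the aPU.1KO mice, so the groups did not overlap in it. Crat, the carnitine acetyltransferase that handles short chains, went the other way from Cpt1a, at 171, 181 and 174 CPM in control and 240.2, 272 and 198 CPM in aPU.1KO mice. Its log2 fold change was 0.43 (SE 0.12, adjusted p = 0.102 by edgeR, 0.0343 by DESeq2 and 0.000102 to 0.9997 over the alternatives).

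The acyl-CoA dehydrogenases, which open each round, had a median log2 fold change of 0.33 over 8 genes, with 7 above 0. The straight-chain enzymes are given in order of chain length. Acadvl, for very long chains, was at 197, 203 and 213 CPM in control and 257, 320.1 and 211 CPM in aPU.1KO mice, a log2 fold change of 0.36 (SE 0.15). Acadl, for long chains, had 0.07 (SE 0.10), Acadm, for medium chains, 0.14 (SE 0.10), and Acads, for short chains, 0.29 (SE 0.11). Acads was the only 1 of these 4 in which the groups did not overlap, and the lowest edgeR adjusted p of the 4 was 0.170. Differences among the 4 were not tested. Over 42.9% of the exon bases of Acadvl, Dvl2 lies on the other strand, and whether the counting used strand is not given in the sources used here.

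Acad10 (ENSMUSG00000029456, chr5:121621026-121660514), a little-studied family member with an additional kinase-like part, had the lowest p of all 35. It was at 11.6, 12.2 and 11.7 CPM in the control mice and at 19.97, 17.04 and 16.1 CPM in the aPU.1KO mice. The groups were well apart for Acad10, with a log2 fold change of 0.58 (SE 0.12, adjusted p = 0.0764 by edgeR, 0.00263 by DESeq2 and 0.00263 to 0.9997 over the alternatives). Acad12, the neighbouring gene on chromosome 5, is 96.7% identical to Acad10 over 47.5% of the Acad10 transcript, so the split of reads between them is uncertain. Acad12 was at 28.1, 33.1 and 27.5 CPM in control and 43.3, 38.4 and 36.8 CPM in aPU.1KO mice, also without overlap, with a log2 fold change of 0.42.

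Acad11, a dehydrogenase of the same branch that takes longer chains, was at 171, 213 and 168 CPM in control and 258, 252 and 233 CPM in aPU.1KO mice, without overlap. Its log2 fold change was 0.43 (SE 0.11, adjusted p = 0.0942 by edgeR, 0.0268 by DESeq2 and 3.20e-06 to 0.9997 over the alternatives). Acad11 was the only member that edgeR called at an adjusted p under 0.05 in any fit that left out a mouse, with 0.0234 without control mouse 2, whose Acad11 level was the highest of the controls. Acadsb, which acts on branched chains from isoleucine, had a log2 fold change of 0.39 (SE 0.13, adjusted p = 0.134 by edgeR), although control mouse 2 at 270.6 CPM all but met aPU.1KO mouse 3 at 271.0 CPM. Acad9, known chiefly for its part in complex I assembly, stayed between 86.5 and 105.9 CPM in all mice, with a log2 fold change of -0.06 (SE 0.09).

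Of the 5 mitochondrial enzymes that hydrate, oxidise and cleave the chain, those for short chains had the highest log2 fold changes. This order was not kept in the fit with macrophage markers as a covariate, given below. Echs1, the short-chain enoyl-CoA hydratase (ENSMUSG00000025465, chr7:140105710-140116476), was at 182, 203 and 195 CPM in control and 265, 349.7 and 221 CPM in aPU.1KO mice. Its log2 fold change was 0.53 (SE 0.17, adjusted p = 0.118 by edgeR, 0.0479 by DESeq2 and 0.00184 to 0.9997 over the alternatives), with aPU.1KO mouse 2 far above the others. Hadh, the short-chain hydroxyacyl-CoA dehydrogenase of the following step, was at 308, 322 and 342 CPM in control and 404, 479 and 358 CPM in aPU.1KO mice, a log2 fold change of 0.35 (SE 0.12, adjusted p = 0.137 by edgeR). In both genes every aPU.1KO mouse was above every control mouse.

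The long-chain counterparts showed smaller differences. Hadha was at 266, 237 and 269 CPM in control and 292, 323 and 240.4 CPM in aPU.1KO mice, and Hadhb at 386, 354 and 401 CPM and 459, 394 and 382 CPM. Both pairs of groups overlapped, and the log2 fold changes, 0.15 for Hadha and 0.11 for Hadhb, were near their SEs of 0.13 and 0.10. These genes start at the ends of the stretch printed above, and the ratio of Hadha to Hadhb in CPM was 0.687, 0.670 and 0.671 in the control mice and 0.637, 0.819 and 0.630 in the aPU.1KO mice, so that aPU.1KO mouse 2 stood apart from the other 5. Acaa2, the mitochondrial thiolase, had a log2 fold change of 0.12 (SE 0.10) with overlapping groups.

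Unsaturated chains need double bonds moved or reduced before they can pass through. Eci1, the mitochondrial enoyl-CoA isomerase (ENSMUSG00000024132, chr17:24426641-24439348), was at 75.5, 77.4 and 83.7 CPM in control and 113, 129.9 and 96.2 CPM in aPU.1KO mice. The groups of Eci1 did not overlap, and the log2 fold change was 0.52 (SE 0.12, adjusted p = 0.0786 by edgeR, 0.00742 by DESeq2 and 0.000124 to 0.9997 over the alternatives). Eci2, an isomerase of peroxisomes and mitochondria, was at 92.1, 96.1 and 93.95 CPM and 106, 124 and 106 CPM, also without overlap, with a log2 fold change of 0.25 (SE 0.09). Its copy Eci3, 92.3% identical over 46.2% of the Eci2 transcript, was at 9.28, 12.8 and 7.42 CPM in control and 22.2, 20.1 and 19.6 CPM in aPU.1KO mice. Eci3 is not a member, and its log2 fold change of 1.07 (SE 0.20, adjusted p = 0.0729 by edgeR) was above that of every member. Decr1, the mitochondrial dienoyl-CoA reductase, had 0.16 (SE 0.09), with groups that overlapped.

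The electron transfer flavoprotein takes electrons from the dehydrogenases to its membrane oxidoreductase, Etfdh. Etfa, its alpha subunit, was at 345, 345 and 388 CPM in control and 486, 490.3 and 404 CPM in aPU.1KO mice, a log2 fold change of 0.36 (SE 0.11, adjusted p = 0.114 by edgeR, 0.0472 by DESeq2 and 0.00252 to 0.9997 over the alternatives). Etfb, the beta subunit, was at 247, 226 and 280.3 CPM in control and 287, 279 and 238 CPM in aPU.1KO mice, with overlapping groups and a log2 fold change of 0.09 (SE 0.12). Etfdh overlapped too, at 0.13 (SE 0.11). The 2 subunits act as a pair, and whether Etfa and Etfb differ in their change was not tested.

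**Figure D3:**
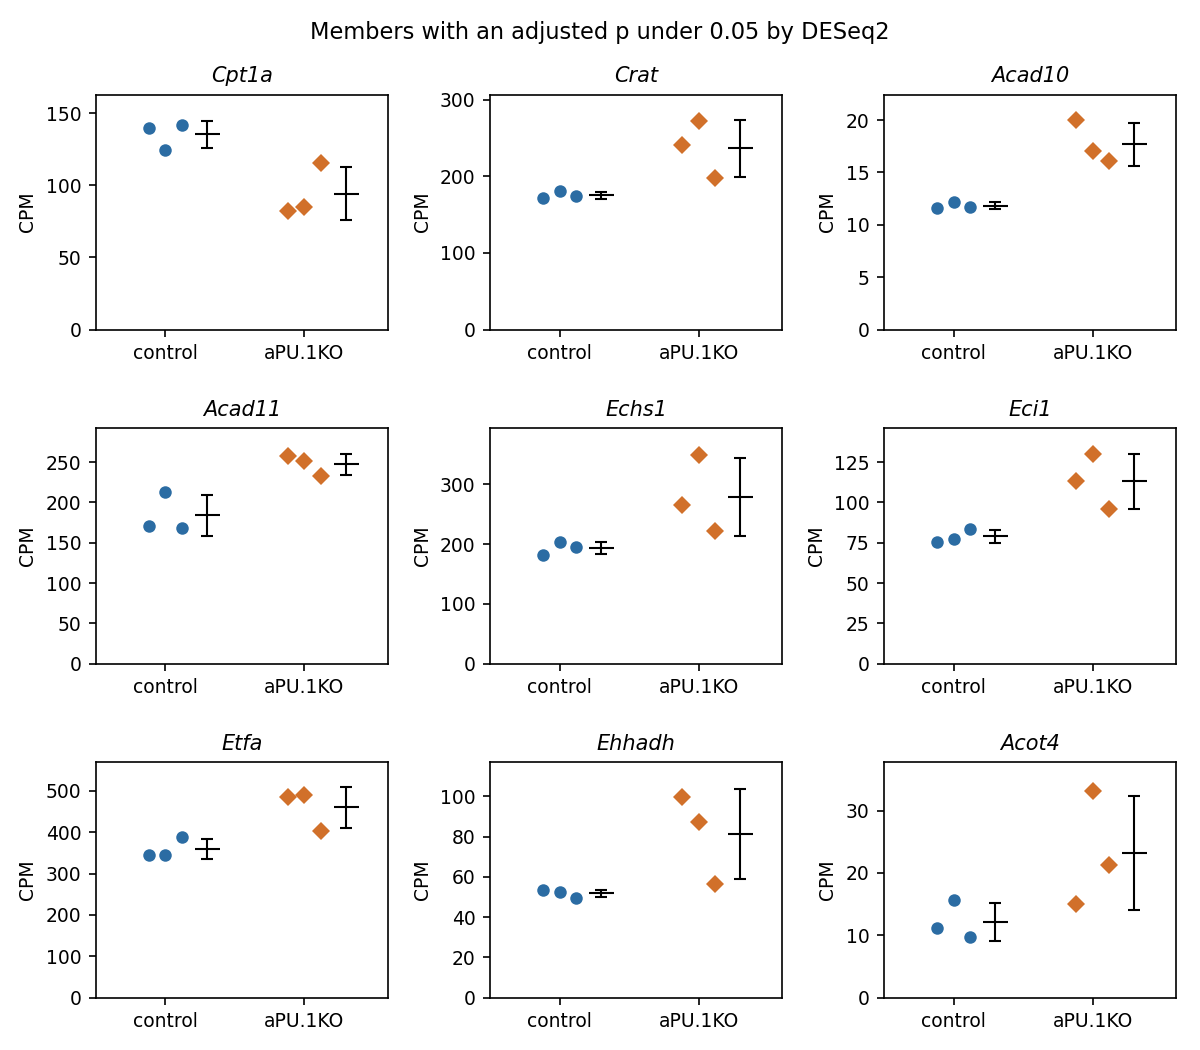
CPM in each mouse (circles, control; diamonds, aPU.1KO) of the 9 members with an adjusted p under 0.05 by DESeq2, with mean and SD of 3 mice beside the points and axes that start at 0. Cpt1a is lower in aPU.1KO mice and the other 8 are higher, and in Acot4 the groups overlap.

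Among the peroxisomal enzymes a single gene of the oxidation spiral stood out. Ehhadh, the bifunctional hydratase and dehydrogenase for straight and dicarboxylic chains (ENSMUSG00000022853, chr16:21761287-21787807), was at 53.3, 52.4 and 49.5 CPM in the control mice and at 99.97, 87.4 and 56.6 CPM in the aPU.1KO mice. Mice 1 and 2 of the aPU.1KO group were far above the controls and mouse 3 only just above them, and the log2 fold change was 0.65 (SE 0.20, adjusted p = 0.111 by edgeR, 0.0344 by DESeq2 and 8.04e-09 to 0.9997 over the alternatives). With a mouse left out, edgeR's value for Ehhadh ran from 0.47 to 0.86. Hsd17b4, the other multifunctional enzyme, which takes branched chains, was at 495, 502 and 530.3 CPM in control and 622, 477 and 526 CPM in aPU.1KO mice. Its groups overlapped, with a log2 fold change of 0.09 (SE 0.12).

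The other peroxisomal steps were close to the controls. Acox3, an oxidase for branched chains, was at 54.00, 56.9 and 49.8 CPM in control and 63.7, 38.7 and 52.8 CPM in aPU.1KO mice, with overlapping groups and a log2 fold change of -0.05 (SE 0.17). The peroxisomal thiolases Acaa1a and Acaa1b had 0.11 and 0.03 (SEs 0.10 and 0.11). Their transcripts are 97.0% identical over 81.0% of that of Acaa1a, so single values for them are uncertain. Decr2 and Pecr, reductases that deal with double bonds in peroxisomes, had 0.17 and 0.15 (SEs 0.13 and 0.12), and the groups overlapped in all 4 of these genes.

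The acyl-CoA thioesterases, which release free fatty acids from CoA, spread most. Acot4, the peroxisomal enzyme for succinyl-CoA and other dicarboxylic esters (ENSMUSG00000052392, chr12:84038379-84048601), was at 11.2, 15.6 and 9.64 CPM in control and 15.1, 33.1 and 21.3 CPM in aPU.1KO mice. Control mouse 2 lay above aPU.1KO mouse 1, so the groups overlapped, although the log2 fold change of 0.94 (SE 0.31, adjusted p = 0.127 by edgeR, 0.0400 by DESeq2 and 0.00725 to 0.9997 over the alternatives) was the highest of all members. With a mouse left out, edgeR's value for Acot4 ran from 0.58 to 1.16. Acot2, the mitochondrial form, was at 20.2, 21.4 and 20.7 CPM and 23.2, 33.5 and 22.1 CPM, without overlap but with mouse 2 alone far above, and had 0.34 (SE 0.17). The low Acot1 counts given above had a log2 fold change of -1.37 (SE 0.60) with overlapping groups, and Acot1 is 93.8% identical to Acot2 over 58.9% of its transcript. Acot8 had 0.20 (SE 0.19).

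Set side by side, the 2 compartments did not separate. The median log2 fold change was 0.16 over the 22 mitochondrial members and 0.15 over the 9 peroxisomal members. With a mouse left out, the mitochondrial median ran from 0.12 to 0.24 and the peroxisomal median from 0.055 to 0.17. Of the mitochondrial members 18 (81.8%) were above 0, and of the peroxisomal members 8 (88.9%), against 52.0% of all genes tested. Every aPU.1KO mouse lay above every control mouse in 8 mitochondrial members (36.4%) and in 1 peroxisomal member, Ehhadh (11.1%), against 16.7% of all genes tested. In each mouse, the mean of log2(CPM + 1) relative to the control mean was -0.02, -0.05 and 0.08 over the mitochondrial members in the control mice and 0.20, 0.24 and 0.04 in the aPU.1KO mice. Over the peroxisomal members it was -0.03, 0.04 and -0.01 in the control mice and 0.32, 0.20 and 0.17 in the aPU.1KO mice. By these means, mouse 3 of the aPU.1KO group lay within the range of the controls for mitochondrial members and above it for peroxisomal members. The median over the peroxisomal members gave another order, with -0.04, 0.02 and 0.02 in the control mice and 0.32, -0.06 and 0.12 in the aPU.1KO mice. For aPU.1KO mouse 2, below all controls by the median, the mean rested on Acot4 (1.40) and Ehhadh (0.75), while 5 of the other 7 peroxisomal members were below 0. The difference between the 2 means (mitochondrial minus peroxisomal) was 0.01, -0.10 and 0.09 in the control mice and -0.11, 0.05 and -0.12 in the aPU.1KO mice, with groups that overlapped. The difference of the medians, 0.01, changed sign with single mice left out, and no p is given for a score over chosen members.

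**Figure D4:**
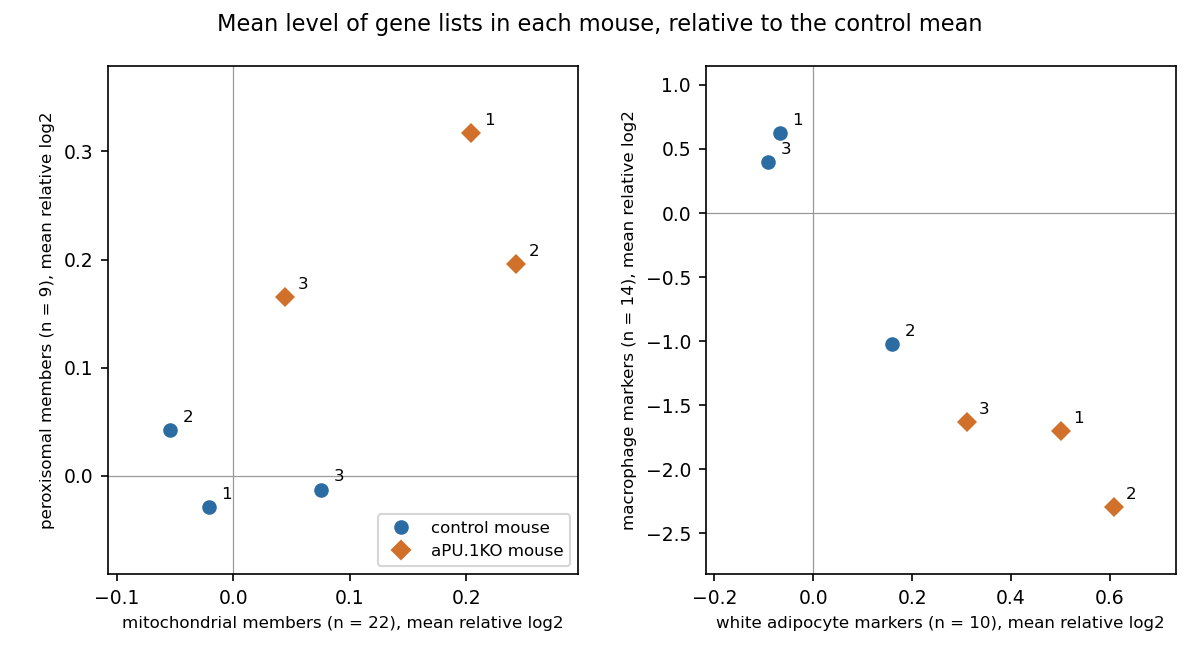
Mean over genes of log2(CPM + 1) relative to the control mean, 1 point per mouse with its number, for mitochondrial against peroxisomal members (left) and for white adipocyte against macrophage markers (right). The aPU.1KO mice lie between 0.17 and 0.32 on the peroxisomal axis, above all control mice by this mean (by the median mouse 2 is at -0.06, below them), while on the mitochondrial axis mouse 3 at 0.04 lies within the controls.

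Single mice stood apart across many members. Of the 3 aPU.1KO mice, mouse 3 was the lowest in 24 of 35 members and the highest in 2, while mouse 2 was the highest in 18 and mouse 1 in 15. Of the 3 control mice, mouse 3 was the highest in 21 and the lowest in 6, while mouse 2 was the highest in 12 and mouse 1 in 2. Summed over the members, the level was 5505, 5511 and 5882 CPM in the control mice and 6769, 6871 and 5919 CPM in the aPU.1KO mice, so aPU.1KO mouse 3 was close to control mouse 3. For the 36 complex I subunits the mean relative level was 0.35, 0.58 and 0.21 in aPU.1KO mice 1, 2 and 3, again lowest in mouse 3.

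Other genes of the pathway are given as whole lists. Of 21 listed peroxisomal partners 16 were tested, and 15 of these were above 0, with a median log2 fold change of 0.25. At an unadjusted p under 0.05, edgeR counted 7 higher (43.8%, against 11.9% of all genes tested) and 1 lower (6.25%, against 13.7%). The highest of these partners was the thioesterase Acot6 at 0.61 (SE 0.20). Of 16 peroxisome biogenesis genes, 14 were above 0 with a median of 0.20, from -0.19 for Pex26 to 0.66 for Pex11a, which promotes peroxisome division. None of these partner and biogenesis genes passed an adjusted p of 0.05 by edgeR, although at an unadjusted p under 0.05 it counted 14 of the 32 higher with 1 lower, against the same shares, and DESeq2 called 5, all higher, against 3.51% of its genes.

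Mitochondrial lists outside fatty acid oxidation lay above the members. The median log2 fold change was 0.38 over 14 genes of branched- and odd-chain oxidation, 0.36 over 18 genes of the TCA cycle and 0.39 over 36 complex I subunits, and all 68 genes were above 0. At an unadjusted p under 0.05, edgeR counted 10 of the 14, 12 of the 18 and 32 of the 36 as higher, against the 11.9% of all genes tested given above, and 0 at an adjusted p under 0.05. DESeq2 called 6 of the 14, 2 of the 18 and 17 of the 36, all higher, against 3.51% of its genes. For the 22 mitochondrial members edgeR's count was 8 higher and 1 lower, and DESeq2 called 4 higher and 1 lower. In the branched- and odd-chain list the range ran from 0.14 for Auh, a leucine pathway hydratase, to 0.53 for Hibch of valine breakdown, and in the TCA cycle from 0.08 for Idh2 to 0.66 for Sdhb. No test of the lists against each other was made.

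**Figure D5:**
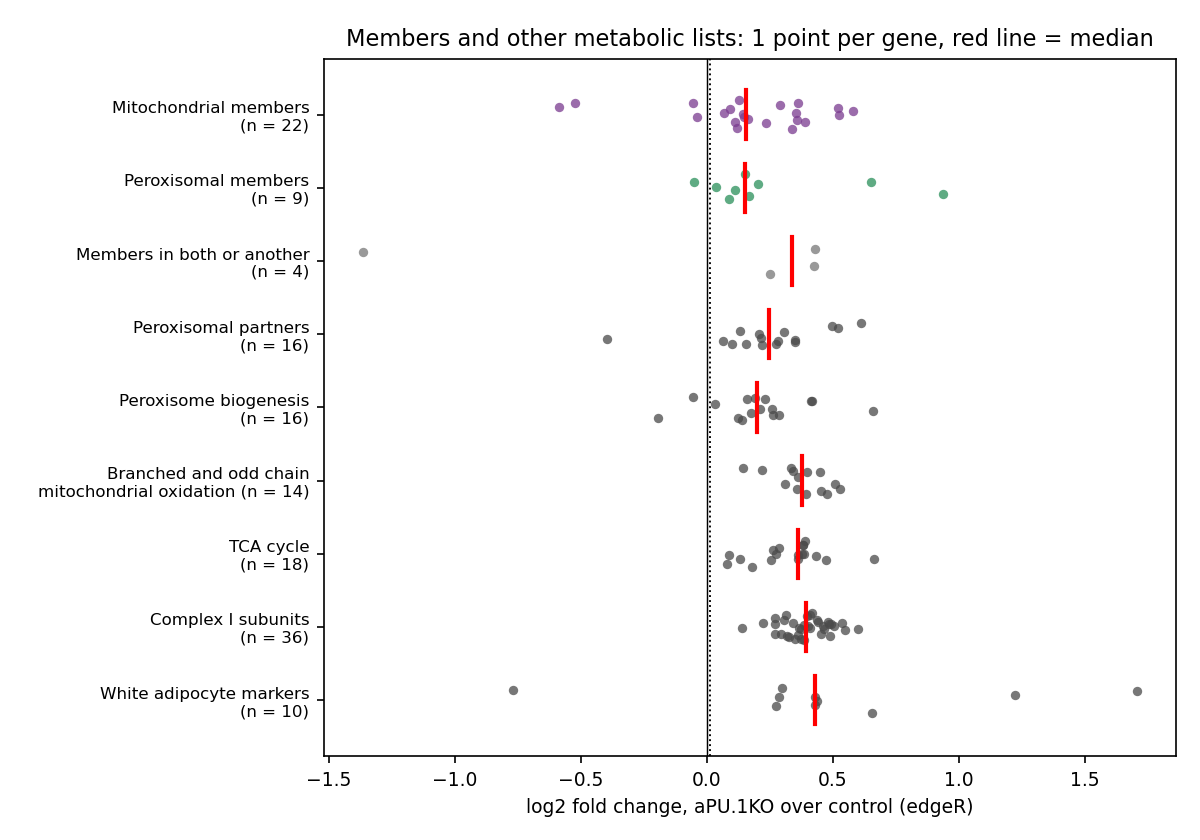
Log2 fold change (aPU.1KO over control, edgeR) of every tested gene of the members by compartment and of 6 other lists, with the median of each as a red line and that of all genes tested (0.01) as a dotted line. Medians are 0.16 and 0.15 for mitochondrial and peroxisomal members and 0.36 to 0.43 for the 4 lowest rows of the plot.

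The supply of acyl-CoA and the control of CPT1 by malonyl-CoA formed a mixed list, with a median of 0.15 over 14 genes tested, of which 5 were higher (35.7%, against 11.9% of all genes tested) with 2 lower (14.3%, against 13.7%) at an unadjusted p under 0.05 by edgeR. Its highest value was that of Acacb, the acetyl-CoA carboxylase at the outer mitochondrial membrane that makes the malonyl-CoA acting on CPT1. Acacb was at 57.2, 79.3 and 40.1 CPM in control and 127, 264 and 72.5 CPM in aPU.1KO mice, with a log2 fold change of 1.39 (SE 0.48, adjusted p = 0.135 by edgeR). For Acacb, aPU.1KO mouse 3 lay within the controls. The lowest value was that of the thioesterase Acot11, at -0.73 (SE 0.24). The ketone body enzymes, with 4 of 5 tested, had their lowest value at -0.81 for Bdh2, and none had an unadjusted p under 0.05.

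Regulators of these genes include nuclear receptors, coactivators and kinases. Ppara, the PPAR form that drives oxidation in liver, was at 7.04, 8.71 and 7.34 CPM in control and 10.9, 10.03 and 10.1 CPM in aPU.1KO mice, without overlap. Pparg, the adipocyte form, was at 208, 251 and 202 CPM and 233, 317 and 288 CPM, with overlap. The coactivators Ppargc1a and Ppargc1b had log2 fold changes of 0.42 and 0.40 (SEs 0.25 and 0.22), also with overlap. Over the 12 regulators the values ran from -0.22 for Ppard to 0.48 for Prkaa2, a catalytic subunit of AMP-activated kinase, of which edgeR counted 6 as higher (50.0%, against 11.9% of all genes tested) and 1 as lower (8.33%, against 13.7%) at an unadjusted p under 0.05. Neither edgeR nor DESeq2 called any of the 12 at an adjusted p under 0.05 (0 by both).

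Genes that respond to PPAR alpha outside the members lay on both sides of 0. Of 13, 10 were tested, 6 were above 0 and 4 below, with a median of 0.15. Pex11a was again the highest, and the lowest, at -6.32 (SE 0.64, adjusted p = 0.0296 by edgeR), was Fabp1, the liver fatty acid binding protein. Fabp1 had 120, 36 and 39 counts in the control libraries and 1, 0 and 0 in the aPU.1KO libraries, where every library was at or under the floor of 3 counts, so the fitted fold depends on the prior count and is no bound. Fabp1 is also a hepatocyte gene, and the hepatocyte markers below were lower as well.

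Markers of macrophages, hepatocytes and progenitors differed between the groups in most genes of their lists. Macrophage markers summed to 2163, 568 and 2084 CPM in control mice and 385, 229 and 369.9 CPM in aPU.1KO mice, with 13 of 14 lower in every aPU.1KO mouse, against 15.5% of all genes tested, and Adgre1 at 129, 26.2 and 115 CPM and 21.3, 7.96 and 15.7 CPM. Hepatocyte markers summed to 59.3, 77.2 and 51.95 CPM and 22.5, 26.3 and 19.5 CPM, with all 13 tested lower in every aPU.1KO mouse, against the same 15.5%, and 6 at an adjusted p under 0.05 by edgeR, against 0.237%. Their median log2 fold change was -3.74 as fitted, and -2.80 with the 7 genes at or under 3 counts in every aPU.1KO library set to that floor. Alb, which makes up most of the sum, had the smallest difference of the 13, at -0.86, with 32.1, 46.1 and 25.98 CPM and 19.4, 21.9 and 15.9 CPM. White adipocyte markers summed to 26699, 27986 and 29123 CPM and 36470, 38917 and 32372 CPM, with 9 of 10 higher in every aPU.1KO mouse, against 16.7% of all genes tested, and a median log2 fold change of 0.43. The remaining marker, Lep, which encodes leptin, was lower in every aPU.1KO mouse, with a log2 fold change of -0.77 (SE 0.32, adjusted p = 0.188 by edgeR). The part of cell composition in the differences of the members was not tested. Progenitor and fibroblast markers had a median of -0.88, with 5 of 8 lower at an unadjusted p under 0.05 by edgeR (against 13.7% of all genes tested) and lower in every aPU.1KO mouse (against 15.5%). Endothelial and mesothelial markers had medians of -0.50 and -0.45, but in both lists every gene overlapped between groups, and 1 of 6 and 0 of 6 had an unadjusted p under 0.05. Of the brown adipocyte markers, 6 of 8 were tested and 5 were above 0, with a median of 0.26 and sums between 29.0 and 41.7 CPM. The exception was Dio2, a deiodinase, which was lower in every aPU.1KO mouse at -1.57 (SE 0.49, adjusted p = 0.115 by edgeR and 0.0287 by DESeq2).

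With the mean log2 CPM of the macrophage markers as a covariate, edgeR counted no member at an unadjusted p under 0.05 (0 of 35), and 413 of all genes tested. The upper end of each range of adjusted p over the alternatives given above, 0.9997, comes from this edgeR fit. The medians of the 2 compartments stayed near their values, at 0.18 for mitochondrial and 0.16 for peroxisomal members. Single members shifted: Acad10 and Ehhadh had log2 fold changes of 0.54 and 0.53, Eci1 and Etfa 0.38 and 0.34, Cpt1a and Crat -0.23 and 0.20, Echs1 and Acad11 0.12 and 0.08, and Acot4 -0.04. Of the 5 enzymes that hydrate, oxidise and cleave the chain, Acaa2 had 0.37, Hadhb 0.30, Hadha and Hadh 0.17 each and Echs1 0.12. Spi1 itself had 0.08. The summed macrophage markers did not overlap between the groups, so this fit separates them poorly.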

How the data were processed

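RNA-seq of the adipocyte fraction was analysed in 3 control and 3 aPU.1KO mice. The authors quantified reads with Salmon (option validateMappings), summed transcripts to genes and deposited estimated counts without normalization, as whole numbers. The submitters' processing notes name GRCm38 and FastQC, and versions and annotation are not given in the sources used here. The table holds 35122 genes, of which 35102 matched GENCODE M21, and libraries of a group all differed beyond sampling noise (lowest chi-square over its degrees of freedom, 20.4).

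Tests used edgeR 4.0.16 under R 4.3.3, with TMM factors, the genes kept by filterByExpr (13925), glmQLFit defaults and Benjamini-Hochberg adjustment, and standard errors come from the coefficient and F statistic. DESeq2, the study's tool, was run here as version 1.42.0 and, with limma 3.58.1 (voom), served as an alternative. The scripts were tested on simulated data. Transcripts were aligned with BLAST 2.17.0. Plots were made in matplotlib 3.10.9. The design named all members and, of other lists, the lowest and highest gene, a few regulators and markers, of which some are not reported here. Acad12 and Eci3 were named after their values were seen. Members, compartments and lists were chosen with earlier results of these data known. With 3 mice a group, the smallest two-sided exact permutation p is 0.1.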

Additional observations from a re-analysis of the deposited data

How the results depend on the processing

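Acot1 had the fewest counts of the members. Over all genes edgeR called 33, against 1833 by DESeq2, 5 with at least 10 counts in every library, 146 with no filter, 0 with the macrophage covariate and 0 (without control mouse 1) to 1193 (without control mouse 2) with a mouse left out. Of the members edgeR called 0, against 9 by DESeq2, 0 to 1 with a mouse left out and, in an alternative chosen after seeing the data, 0 to 12 by DESeq2 with a mouse left out (12 without aPU.1KO mouse 3, 6 without control mouse 2, 0 without control mouse 1 and 2 in the other 3 fits). Members higher at an unadjusted p under 0.05 numbered 13 in the fit reported, 5 to 16 with a mouse left out and 0 with the macrophage covariate. Those lower numbered 1, against 2 with legacy = FALSE, with limma-voom or with no filter, 1 to 3 with a mouse left out and 0 with the covariate. The peroxisomal median ran from 0.055 (without aPU.1KO mouse 1) to 0.17 and the mitochondrial median from 0.12 to 0.24 with a mouse left out. Their difference changed sign when control mouse 1 was thinned to the median depth of the other libraries (-0.0064) and ran from -0.040 to 0.11 with a mouse left out.

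Direction changed for Cpt1b (0.47), Acadsb (-0.053), Acad9 (0.036), Acox3 (0.061), Acot2 (-0.027) and Acot4 (-0.044) with the macrophage covariate. With mice left out it changed for Hsd17b4 (-0.033 to 0.17), Acad9 (-0.12 to 0.024), Acox3 (-0.24 to 0.12), Acaa1b (-0.089 to 0.12) and Acadl (-0.00057 to 0.13). The cause was not tested. Of the values of single members under the alternatives other than DESeq2 with a mouse left out, 537 kept their direction and side of the threshold, 10 kept their direction and passed it, and 12 changed direction. RLE or upper quartile factors and the robust dispersion changed neither the call nor the direction of any member, nor did the stricter filter for the 34 members it left. The study describes its control mice as littermates, but the labels do not give the litter of a mouse. No paired analysis was therefore made, and litters shared between the groups cannot be seen here.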
